A study of Homo sapiens with 6 samples.

Results

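Messenger RNA of 10 polypeptide N-acetylgalactosaminyltransferase genes (GALNT1, GALNT2, GALNT3, GALNT4, GALNT6, GALNT7, GALNT10, GALNT11, GALNT12 and GALNT14) was followed in HAP1, a human cell line that came from a chronic myeloid leukaemia and is nearly haploid. The 10 genes were picked by symbol from the 57773 genes of a count table, with GALNT14 leading the group because of its difference between the genotypes compared here. Their changes are therefore given as a description. Polyadenylated RNA was sequenced from wild-type HAP1 cells (3 libraries) and from HAP1 carrying CTCF Y226A, F228A (3 libraries, called mutant here). The edit was made in the endogenous gene with Cas9 and a repair oligonucleotide carrying the desired change plus a silent one, followed by brief puromycin selection and Sanger sequencing of clones. CTCF binds insulator and loop-anchor sites on DNA, where it meets the cohesin ring, and the comparison asks which transcripts differ when these residues are replaced. The mutant libraries share a single number in their labels, and separate clones or cultures are not stated. What comes from the substitutions and what from the history of an edited clone therefore cannot be told apart. A p-value here sets the difference between genotypes against the spread of libraries within a genotype, and that spread may be technical.

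These enzymes sit in the Golgi and attach N-acetylgalactosamine to serine or threonine, the first step of mucin-type O-glycosylation. Some family members start on bare peptides, and others, called follow-up enzymes, prefer peptides that already carry a sugar. C1GALT1 with its chaperone C1GALT1C1, GCNT1 and sialyltransferases then lengthen and cap the chain. Mucins, CD44 and death receptors are among the known carriers. GALNT14 belongs to the same subgroup as GALNT2 and is known for its link to the sensitivity of cancer cells to the death ligand TRAIL.

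The 6 libraries held 7764009 to 9610028 gene counts, and a single count corresponded to 0.104 to 0.130 CPM (gene counts scaled to a common library size, with trimmed mean of M-values scaling). The lowest correlation of log2 CPM within a genotype was 0.992. Of 10 blood markers, PTPRC, SPI1, GATA1 and HBG1 were among those with 0 counts in all libraries, while TAL1 rose from 31.9 ± 2.49 to 67.5 ± 3.57 CPM (mean ± SD, n = 3 per genotype, as throughout; edgeR adjusted p = 1.89e-09), RUNX1 was called lower, and the summed level went from 98.7 to 111 CPM up to 142 to 153 CPM. TAL1 and LYN made up most of that sum, and LYN was not called, at a mean of 65.5 CPM in the wild type and 73.3 CPM in the mutant. Of 10 epithelial markers, KRT19 and GRHL2 had 0 counts, EPCAM and ESRP1 were called higher and KRT8 lower, and the summed level was 62.6 to 66.3 CPM in the wild type and 63.9 to 73.3 CPM in the mutant. KRT18, not called, was its largest part, at means of 32.4 CPM in the wild type and 36.5 CPM in the mutant. The untested CLDN7, CLDN4 and CDH1 had 37, 20 and 11 counts over the 3 wild-type libraries and 3, 10 and 1 over the 3 mutant libraries. Of 8 fibroblast markers, COL1A2, DCN and LUM had 0 counts, COL1A1 and FBLN1 were called higher, and the summed level went from 244 to 258 CPM up to 298 to 331 CPM. FBLN1 made up most of that sum, at a mean of 223 CPM in the wild type and 276 CPM in the mutant. The untested COL3A1, PDGFRB and THY1 had 9, 20 and 29 counts over the 3 wild-type libraries and 0, 5 and 16 over the 3 mutant libraries. Their part in the changes below was not tested. In bulk RNA, fewer cells with a transcript and less transcript per cell cannot be told apart. CTCF mRNA was also called higher, at 109 ± 3.14 CPM in the wild type and 135 ± 4.12 CPM in the mutant (log2 0.31, edgeR adjusted p = 4.20e-04). Its part in the changes below was not tested either.

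Sequences in front of GALNT14 and GALNT10, both called higher below, are shown first, since CTCF acts on DNA. For GALNT14 and GALNT7, RefSeq windows that share more than 30 bases with annotated UTRs are described by their composition only. The sequences are the 250 bases before each RefSeq start, on build GRCh38.p14, written 5′ to 3′ along the gene with CpG dinucleotides in capitals.
GALNT14, start at lower coordinate (chr2:31129641-31129890, minus strand): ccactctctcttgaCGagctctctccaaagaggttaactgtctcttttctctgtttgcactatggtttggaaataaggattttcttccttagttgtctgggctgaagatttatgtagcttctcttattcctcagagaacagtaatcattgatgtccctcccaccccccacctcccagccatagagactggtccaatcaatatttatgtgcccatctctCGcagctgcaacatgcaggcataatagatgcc
GALNT10 (chr5:154190483-154190732, plus strand): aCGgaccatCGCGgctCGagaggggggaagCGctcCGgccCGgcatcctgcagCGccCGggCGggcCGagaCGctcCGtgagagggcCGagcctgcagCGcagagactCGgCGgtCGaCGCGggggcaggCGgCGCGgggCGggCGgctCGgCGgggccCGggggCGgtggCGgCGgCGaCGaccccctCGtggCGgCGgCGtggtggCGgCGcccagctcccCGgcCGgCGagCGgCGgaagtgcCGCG
RefSeq gives GALNT14 a pair of starts 8.8 kb apart. The window of the start at the higher coordinate held 26 CpG dinucleotides and 72.4% G and C, and that of the other start held 2 CpG and 45.2%. Over all 35116 promoter windows the medians were 11 CpG and 58.0%, and 19.6% of them had at least 26 CpG. GALNT7 had 20 CpG in its window and GALNT10 had 46, a number reached by only 0.413% of windows. GENCODE places the outermost start of GALNT14 farther upstream, at the end of the gene given below. Gene-level counts do not show which start was used. A search for a short CTCF motif found 0 matches in the windows of GALNT14, GALNT10 and GALNT7. Of 11 windows of the group, 1 held a match, that of GALNT12, beside 4.01% of all promoter windows. Binding of CTCF to these windows was not tested.

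Of the 10 genes, 8 passed the filter on low counts (edgeR's filterByExpr) and entered the fit. At an edgeR adjusted p under 0.05, 3 of the 8 were called higher in the mutant and 0 lower, where 21.2% of all 14835 tested genes were called, 11.9% higher and 9.26% lower. Nothing is read from that count, since this contrast chose the group. At an unadjusted p under 0.05 there were 4 higher and 1 lower, DESeq2 called 2 higher and 0 lower, and limma-voom 3 and 0. The 3 mutant libraries lay above the 3 wild-type libraries without overlap for 4 of the 8 (GALNT7, GALNT10, GALNT12 and GALNT14) and below for 2 (GALNT2 and GALNT6), beside 19.0% and 16.5% of all tested genes. The median log2 change of the 8 was 0.15, and that of all tested genes -0.001. The median absolute log2 change was 0.26 for the 8 and 0.15 for all tested genes. In the authors' deposited table, GALNT14 and GALNT7 had an adjusted p under 0.05, and so did 8.85% (higher) and 7.62% (lower) of its 13917 genes with an adjusted p.

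**Figure D1:**
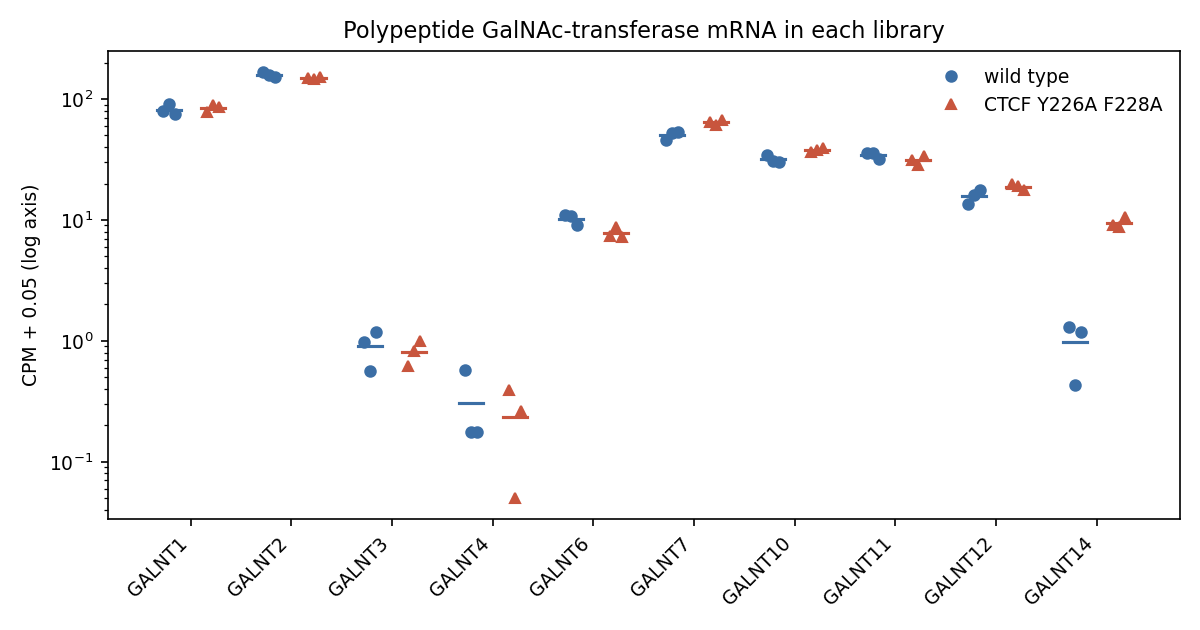
CPM of the 10 genes in each library, on a log axis after adding 0.05; circles are the 3 wild-type and triangles the 3 mutant libraries, and short lines are means. GALNT14 sits at 0.382 to 1.25 CPM in the wild type and at 8.68 to 10.6 CPM in the mutant, and GALNT2 has the highest value in each of the 6 libraries.

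GALNT14 (ENSG00000158089.10) lies on the minus strand of chromosome 2, at chr2:30910467-31155202 of GRCh38. It had 12, 3 and 9 counts in the wild-type libraries and 79, 67 and 100 in the mutant libraries, or 1.25, 0.382 and 1.13 CPM against 9.03, 8.68 and 10.6 CPM. All 3 mutant libraries lay well above all 3 wild-type libraries, and wild-type replicate 2 was the lowest. The fitted log2 change was 3.31 (SE 0.266), or 9.90-fold. It ranked 9 from the top among 14835 tested genes, and 5 among those whose average log2 CPM was 2 or more. The ratio of pooled counts, 246 against 24, was 10.05 with a 95% counting interval of 6.60 to 16.0 (Clopper-Pearson, counting error only). The log2 change ranged from 2.97 (without wild-type replicate 2) to 3.61 (without wild-type replicate 1) over 12 alternatives. The authors' deposited table gives 3.32 with a standard error of 0.381. Wild-type replicate 2 thus sat at the floor of 3 counts, and every mutant library held at least 67 counts.

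The closest relative of GALNT14 among the 10, GALNT2, an enzyme that acts on apolipoproteins and many other secreted proteins, had the highest level per kb of exonic length. Its values were 167, 158 and 153 CPM in the wild type and 150, 145 and 151 CPM in the mutant. The mutant libraries lay just below the wild-type libraries, and the fitted log2 change of -0.10 (SE 0.0559) was not called. GALNT1, the other broadly expressed starter enzyme, had 79.0, 90.0 and 75.2 CPM against 78.6, 88.6 and 85.7 CPM. Its groups overlapped, and the log2 change was 0.05 (SE 0.0739), or -0.00 without wild-type replicate 3. GALNT11, an enzyme with NOTCH1 and LDL-receptor relatives among its substrates, had 35.6, 35.7 and 31.7 CPM against 31.1, 28.4 and 33.6 CPM and was not called (log2 -0.15, SE 0.0916).

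GALNT3 and GALNT6 are a related pair, at 0.183 and 1.39 CPM per kb in the wild type. GALNT6, an enzyme known to act on fibronectin, had 10.9, 10.7 and 8.95 CPM in the wild type and 7.31, 8.68 and 7.18 CPM in the mutant. Every mutant value was below every wild-type value, yet the log2 change of -0.41 (SE 0.153) was not called. With upper-quartile scaling it was -0.43 and called lower. GALNT3, which protects the phosphate hormone FGF23 from cleavage, had 9, 4 and 9 counts against 5, 6 and 9 and did not pass the filter. These counts overlap, and a small change in GALNT3 was not detectable at this depth. The authors' deposited table gives GALNT3 a log2 change of -0.17 with a standard error of 0.687.

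The follow-up enzymes GALNT7 and GALNT10 were the other genes called higher. GALNT7 had 46.1, 52.7 and 53.7 CPM in the wild type and 64.7, 61.0 and 66.9 CPM in the mutant. The groups did not overlap, and the log2 change was 0.34 (SE 0.0776), or 1.27-fold, a call held in all 12 alternatives. GALNT10 had 34.2, 30.7 and 30.2 CPM against 36.2, 38.1 and 39.5 CPM. Its log2 change of 0.26 (SE 0.0865) was called, but the call was lost in 6 of 12 alternatives, namely DESeq2 (0.25), upper-quartile scaling (0.24), and the fits without wild-type replicate 2 (0.23), wild-type replicate 3 (0.22), mutant replicate 2 (0.25) or mutant replicate 3 (0.22). GALNT12, altered in some families with colorectal cancer, had 13.5, 16.0 and 17.5 CPM against 19.8, 19.0 and 17.5 CPM, with the highest wild-type and the lowest mutant library nearly equal. It was not called (log2 0.27, SE 0.121).

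GALNT4, a follow-up enzyme, could not be judged from these counts. Its row held 5, 1 and 1 wild-type counts and 3, 0 and 2 mutant counts, and it did not pass the filter. In the GENCODE annotation, 93.2% of its exonic bases also belong to the readthrough gene POC1B-GALNT4 on the same strand, whose row held 0 counts in all libraries. Reads that fell on more than 1 gene were set apart in the table as ambiguous, 1.70 to 1.79% of all counted reads per library. Among the other members, the largest exonic overlaps were with antisense genes, at 21.1% for GALNT12 and 13.3% for GALNT2, and although the library kit kept strand, the strand setting of the counting is not stated. For GALNT14 the only exonic overlap with another gene was 42 bases, or 0.920%.

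**Figure D2:**
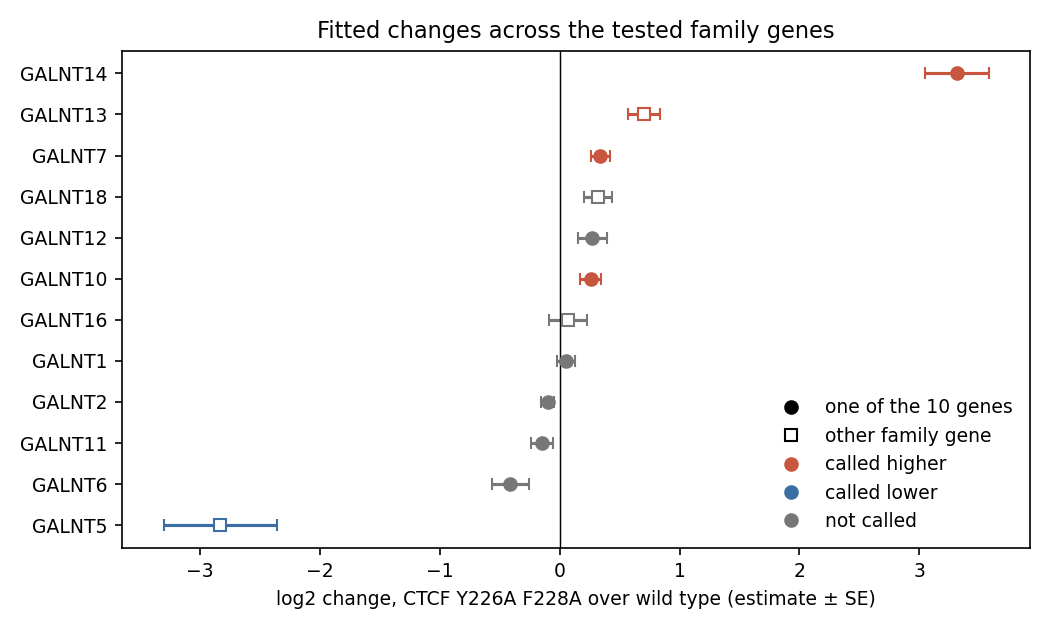
Fitted log2 change of mutant over wild type with its SE for the 12 family genes that were tested; circles are the 8 tested genes of the group, open squares the 4 other family genes, and colour gives the edgeR call. GALNT14 (3.31) and GALNT5 (-2.83) stand at opposite ends, and the other 10 genes lie between -0.41 and 0.70.

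The rest of the family added a gene in each direction. Of 10 further family genes, 4 were tested, 1 was called higher and 1 lower, and GALNT9, GALNT15 and GALNTL5 had 0 counts in all libraries. GALNT13, a relative of GALNT1 known from neural tissue, had 11.0, 11.2 and 8.32 CPM in the wild type and 16.2, 16.3 and 17.3 CPM in the mutant. It rose by 0.70 on the log2 scale (SE 0.134, edgeR adjusted p = 4.99e-04). GALNT5 had 16, 13 and 15 wild-type counts and 1, 2 and 3 mutant counts, a fall of 2.83 on the log2 scale (SE 0.472, edgeR adjusted p = 1.28e-04). Pooled counts of 44 and 6 gave a ratio of 7.48 with a 95% counting interval of 3.18 to 21.5. GALNT16 and GALNT18, named after their values were seen, had log2 changes of 0.07 and 0.32 and were not called. GALNT14, GALNT13, GALNT5 and GALNT3 all lie on chromosome 2, GALNT14 from base 30910467 and the others between bases 153871913 and 165794682.

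Levels were compared between genes as CPM per kb of exonic length. In the wild type the order began with GALNT2 (20.6 ± 0.948), GALNT1 (mean 15.9, range 14.7 to 17.6) and GALNT7 (7.40 ± 0.597), each apart from the next without overlap. GALNT12 (range 4.30 to 5.58) overlapped with GALNT18 (4.97 ± 0.223), and then came GALNT11 (4.14 ± 0.274), GALNT10 (3.02 ± 0.206), GALNT13 (1.56 ± 0.247) and GALNT6 (1.39 ± 0.146), the last 2 overlapping. GALNT14 (0.202 ± 0.103) ranked 12 of 20 and overlapped with GALNT5 above and GALNT3 below it. In the mutant GALNT14 (2.06 ± 0.218) ranked 9 of 20, below GALNT13 (2.55 ± 0.0921) and above GALNT6 (1.05 ± 0.113) without overlap with either. GALNT2, GALNT1 and GALNT7 kept the first 3 places.

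The summed level of the 10 genes was 57.7, 59.7 and 56.3 CPM per kb in the wild type and 60.8, 61.3 and 62.9 in the mutant. GALNT14 supplied 0.473, 0.140 and 0.441% of that sum in the wild type and 3.25, 3.10 and 3.68% in the mutant. GALNT2 supplied 35.6 ± 1.69% and 31.1 ± 0.686%, GALNT7 12.8 ± 1.12% and 15.2 ± 0.568%, and GALNT1 26.1 to 29.4% and 25.2 to 28.2%. GALNT14 thus remained a small part of the summed signal in the mutant libraries. The sum rests on annotated exonic lengths, and lengths of the transcripts in use are not known from gene counts.

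**Figure D3:**
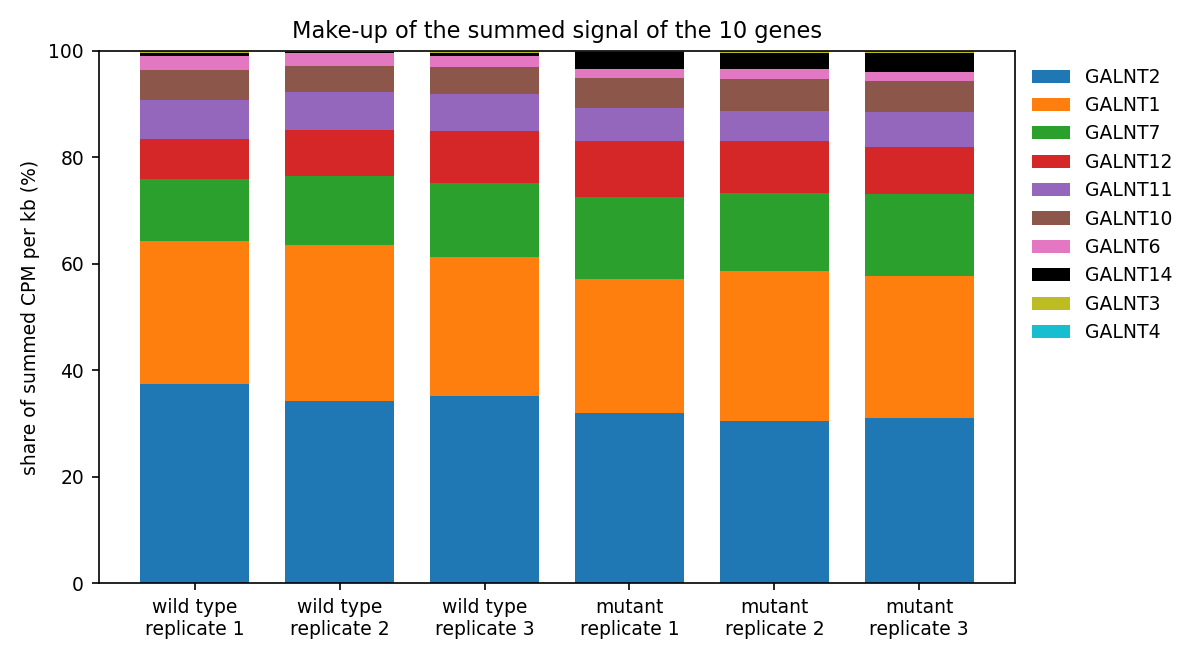
Share of each of the 10 genes in their summed CPM per kb, in percent, for each of the 6 libraries; colours are genes and GALNT14 is black. The black segment is 0.140 to 0.473% in the wild type and 3.10 to 3.68% in the mutant, and GALNT2 and GALNT1 form the largest segments in all 6 libraries.

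The genes around GALNT14 were examined by their order on the chromosome. Of the 57773 genes, 52338 had a gene model in GENCODE v29, and only these could be placed, here and for the neighbours below. Among the placed genes, 4 other protein-coding genes lie between the nearest tested genes, LCLAT1 and MEMO1, and 0 of the 4 passed the filter. Genes without such a model may be missing from this stretch. CAPN13 and XDH had 0 counts in all libraries and CAPN14 had 1 count per genotype. EHD3, an endosomal trafficking gene on the side of the GALNT14 start, had 10, 4 and 4 wild-type counts and 1, 1 and 0 mutant counts, 9.18 times as much in the wild type (95% counting interval 2.20 to 81.6). These 4 genes were named after their values were seen.

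Of the 10 nearest tested protein-coding genes, 5 on each side, 2 rose and 5 fell, where 11.9% of all tested genes were called higher and 9.26% lower, and the median log2 change was -0.05. The lowest coordinates of these 10 genes, whatever their strand, were 463 kb (LCLAT1) to 2016 kb (WDR43) from that of GALNT14. GALNT14 is on the minus strand, so its lowest coordinate is its 3′ end and not its start. On the side of lower coordinates LCLAT1, a phospholipid-remodelling acyltransferase, had 49.8 to 58.0 CPM in the wild type and 54.4 to 59.2 CPM in the mutant and was not called (log2 0.09). LBH, a transcription cofactor of the developing heart and limb, had 41.1, 38.4 and 37.5 CPM in the wild type and 54.8, 56.1 and 57.5 CPM in the mutant, a rise of 0.52 on the log2 scale (SE 0.0765, edgeR adjusted p = 2.64e-05). YPEL5 was not called (0.16), CLIP4 rose by 0.47, and WDR43, a ribosome biogenesis gene, fell by 0.18. The call of CLIP4 was lost with DESeq2 (adjusted p = 0.0635) and without wild-type replicate 3 (0.0885). That of WDR43 was lost with DESeq2 (0.0642) and without wild-type replicate 2 (0.200), wild-type replicate 3 (0.0744), mutant replicate 1 (0.0948) or mutant replicate 2 (0.0774).

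On the side of higher coordinates MEMO1 was not called (0.33), and the next 4 genes fell by 0.25 to 0.33 on the log2 scale. They were DPY30, a subunit of histone H3K4 methyltransferases (-0.33), SPAST, a microtubule-severing enzyme (-0.25), the zinc transporter gene SLC30A6 (-0.29) and the Golgi protein gene YIPF4 (-0.28). For SPAST the groups overlapped, at 51.5 to 55.3 CPM in the wild type and 40.9 to 51.7 CPM in the mutant. The call of SPAST was lost with DESeq2 (adjusted p = 0.0820) and without wild-type replicate 1 (0.0601), wild-type replicate 2 (0.117), wild-type replicate 3 (0.116), mutant replicate 1 (0.140) or mutant replicate 2 (0.153). Single libraries also decided the calls of SLC30A6 (adjusted p = 0.0610 without wild-type replicate 2), DPY30 (0.0703) and YIPF4 (0.0692), the last 2 without wild-type replicate 3.

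**Figure D4:**
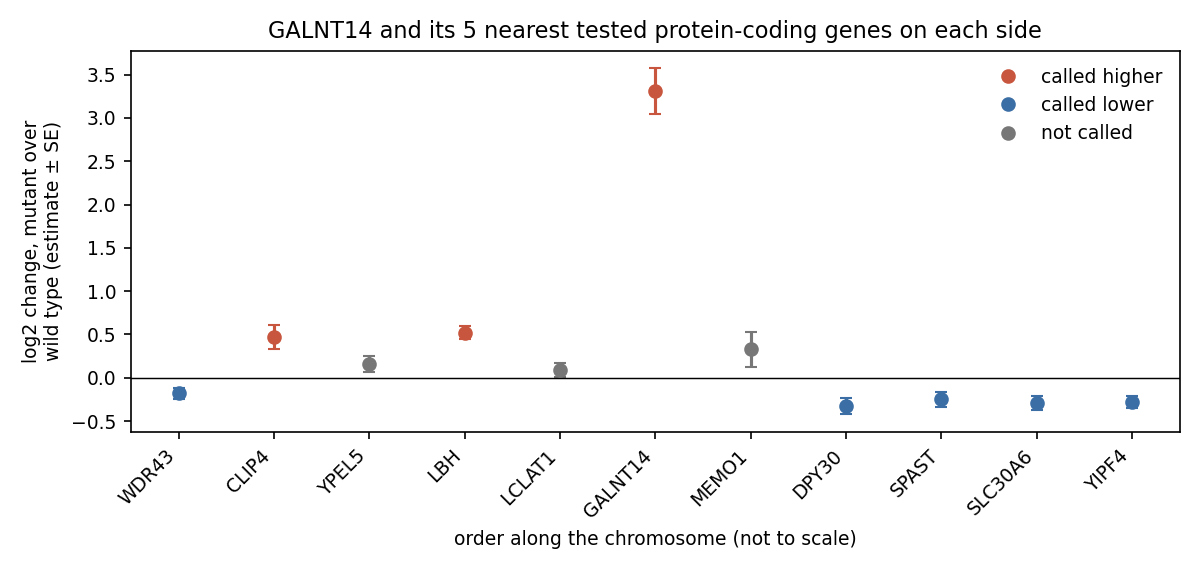
Fitted log2 change of mutant over wild type with its SE for GALNT14 and the 5 nearest tested protein-coding genes on each side, in chromosome order and not to scale; colour gives the edgeR call. GALNT14 is at 3.31, and all 10 neighbours lie between -0.33 and 0.52.

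Around the other 9 genes, 18 nearest tested neighbours were examined, of which 5 rose and 1 fell, beside the same 11.9% and 9.26%. CSRNP3, beside GALNT3, went from 7.52 ± 0.543 down to 1.85 ± 0.0802 CPM (log2 -2.02, edgeR adjusted p = 2.67e-07). PGBD5 beside GALNT2 rose by 0.78, AADAT on the lower side of GALNT7 by 0.71, KMT2C beside GALNT11 by 0.51, SAP30L beside GALNT10 by 0.33 and ANKS6 beside GALNT12 by 0.24. The call of ANKS6 was lost without mutant replicate 1 (adjusted p = 0.0545). The lowest coordinates of AADAT and GALNT7, whatever their strand, are 3109 kb apart. The other flank of GALNT7, HMGB2, was not called (0.12).

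Called genes of extension, capping, sugar supply and carriers were all lower. The lists of other O-glycan types and TRAIL signalling had calls in both directions. Over 6 lists of 75 genes on O-glycan extension, capping, sugar supply, other O-glycan types, carriers and TRAIL signalling, 48 were tested, 2 rose (4.17%) and 8 fell (16.7%), beside the 11.9% and 9.26% of all tested genes. With DESeq2, 0 or 1 gene of each list was called lower. Over all tested genes DESeq2 called 1002 lower, against 1374 with edgeR. Of 4 tested extension genes 2 fell and 0 rose (0 also at an unadjusted p under 0.05 and with DESeq2 and limma-voom). GCNT1, which adds the core 2 branch, had 43.1, 42.2 and 41.8 CPM in the wild type and 30.3, 31.1 and 26.8 CPM in the mutant, a log2 change of -0.53 (SE 0.0858, edgeR adjusted p = 8.68e-05). C1GALT1, which makes core 1, was not called (-0.10). Its chaperone gene C1GALT1C1 fell by 0.25 (edgeR adjusted p = 0.0471), a call lost in 6 of 12 alternatives, among them DESeq2 (0.107), limma-voom (0.0539) and the fits without wild-type replicate 2 (0.223), wild-type replicate 3 (0.0805), mutant replicate 1 (0.0642) or mutant replicate 3 (0.147).

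Capping and sugar supply had 1 call each. Of 5 tested sialyltransferases, ST3GAL2 was lower (log2 -0.28, edgeR adjusted p = 0.0473), a call lost in 8 of 12 alternatives, including DESeq2 (0.115), limma-voom (0.0512), no filter (0.0511) and each fit without a library but that without mutant replicate 1 (0.0557 to 0.180). Of 12 sugar-supply genes, all tested, GALT of galactose metabolism fell by 0.42. The call of GALT was lost with DESeq2 (adjusted p = 0.0547) and without wild-type replicate 1 (0.0666), wild-type replicate 3 (0.0536), mutant replicate 2 (0.0636) or mutant replicate 3 (0.0838). Neither list had a gene called higher by edgeR, DESeq2 or limma-voom, or at an unadjusted p under 0.05.

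Among 11 tested starter enzymes of other O-glycans, TMTC2, of the O-mannosyltransferases of cadherins, went from 29.7 ± 2.64 up to 40.7 ± 2.69 CPM (log2 0.45, edgeR adjusted p = 8.75e-04). POMT1, an O-mannosyltransferase of dystroglycan, was called lower (log2 -0.43) with overlapping groups. Leaving out wild-type replicate 1 or 3 ended that call (adjusted p = 0.119 and 0.0658). The untested TMTC1 and XYLT1 had 43 and 2 wild-type counts and 7 and 2 mutant counts. Carriers of O-glycans included the largest fall among the 48 genes. CD44, the hyaluronan receptor, had 15.9, 15.1 and 14.2 CPM in the wild type and 1.03, 1.81 and 1.27 CPM in the mutant (log2 -3.47, SE 0.202, edgeR adjusted p = 2.88e-11). MUC4, a membrane mucin, fell by 0.82 with overlapping groups, at 3.94 to 5.80 CPM in the wild type and 2.17 to 4.02 CPM in the mutant. It missed the threshold with DESeq2 (adjusted p = 0.0727) and without wild-type replicate 1 (0.0595), wild-type replicate 3 (0.102), mutant replicate 1 (0.0595) or mutant replicate 3 (0.0999). The other 5 of 7 tested carriers were not called, and MUC2, MUC6, MUC15, MUC16 and MUC17 had 0 counts in all libraries. No carrier was called higher by edgeR, DESeq2 or limma-voom, or at an unadjusted p under 0.05.

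The tested death receptors of TRAIL were not called, and a decoy receptor fell. TNFRSF10A, the death receptor DR4, had 28.4, 28.2 and 29.7 CPM against 31.8, 30.3 and 30.8 CPM (log2 0.11, not called), and TNFRSF10B, the death receptor DR5, had 131 ± 2.51 and 131 ± 4.43 CPM (log2 -0.00, and 0.01 or 0.02 without wild-type or mutant replicate 3). TNFRSF10D, a decoy receptor, had 14.5, 15.1 and 14.9 CPM in the wild type and 10.2, 10.1 and 10.2 CPM in the mutant (log2 -0.54, edgeR adjusted p = 0.00299). CFLAR, an inhibitor of caspase-8 activation, went from 40.7 ± 1.59 up to 49.4 ± 1.18 CPM (log2 0.28, edgeR adjusted p = 0.0111, and 0.0582 without wild-type replicate 1). In all, 9 of the 12 TRAIL genes were tested, 1 rose and 1 fell. The untested TNFSF10, TNFRSF10C and CASP10 had 9, 14 and 25 wild-type counts and 7, 4 and 8 mutant counts.

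**Figure D5:**
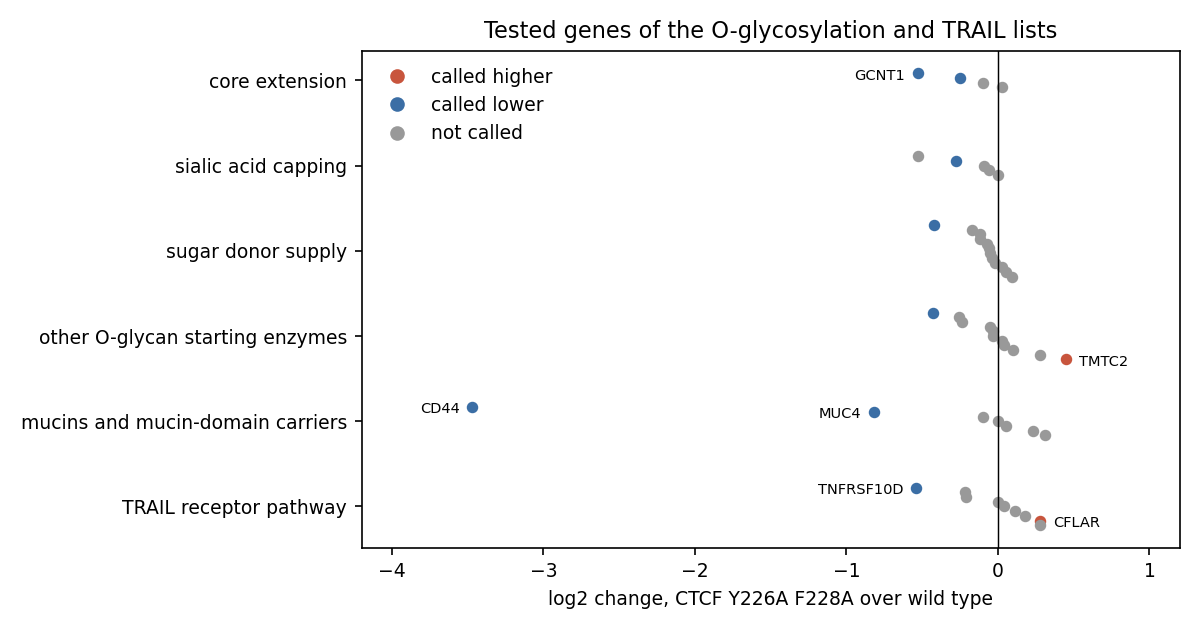
Fitted log2 change of mutant over wild type for each of the 48 tested genes of 6 lists; each point is a gene, spread vertically within its list for legibility, and colour gives the edgeR call. Most points lie near 0, and CD44 at -3.47 is the farthest from it.

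The genes whose log2 CPM most resembled that of GALNT14 over the 6 libraries were SH3D19 (Pearson r = 0.9989), ZFP36L2 (0.9978), CDK2AP1 (0.9977), INHBB (0.9977) and AADAT (0.9976). Among 12596 genes compared, 36 had an r of at least 0.99. With 6 libraries in 2 genotypes, r mostly follows the genotype, and it ignores size, since the log2 changes of these genes were 0.32, 0.13, 0.40, 0.62 and 0.71 against 3.31 for GALNT14.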

How the data were processed

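Polyadenylated RNA of 6 HAP1 libraries was analysed. The authors deposited raw counts per gene. The submitters' processing notes name build hg19, TopHat2 2.1.1, HTSeq and DESeq2. Their roles, the annotation and the strand setting were not found in these sources, and the library kit kept strand. The authors also deposited a DESeq2 table per gene with a mean signal (counts over size factors), a log2 fold change, its Wald score, a p-value before and after adjustment, and an unexplained mark (other). All 6 count columns were used and 0 were left out. Some genes of the lists are not reported here by name. Rows without a gene (22.4 to 24.3% of reads per library) were set aside.

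Symbols came from the authors' table or by Ensembl identifier. Gene order, exonic length and overlaps came from GENCODE v29 on GRCh38, another build than that of the counts. Gene order and overlaps served as locations only, and exonic length gave the CPM per kb. Promoter sequences are RefSeq's, with 8 of 10 genes matched.

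Counts were fitted in R 4.3.3 with edgeR 4.0.16 (filterByExpr, TMM factors 0.995 to 1.004, robust quasi-likelihood F test, two-sided, genotype only). p-values were adjusted by Benjamini-Hochberg over 14835 genes, and an adjusted p under 0.05 was a call. The SE of a fitted log2 change is its absolute value divided by the square root of the F statistic. It is computed otherwise than the standard error of the authors' deposited table. The fit was tested on simulated data. Alternatives used DESeq2 1.42.0, limma-voom 3.58.1, other scalings, no filter beyond 1 count, a replicate block and each library left out.

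The genes and lists were chosen with earlier results of these data known. Named genes were the 10 genes, up to 4 called genes per list with the largest change and average log2 CPM from 0, C1GALT1, C1GALT1C1, TNFRSF10A, TNFRSF10B, the nearest tested neighbours, and the 5 genes most correlated with GALNT14 among those with average log2 CPM from 2. A floor of 3 counts equals 0.312 to 0.389 CPM. Intervals and the floor express counting error alone, because reads that carry no molecular identifier need not be separate molecules.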

Additional observations from a re-analysis of the deposited data

How the results depend on the processing

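Over 12 alternatives, 51 named genes gave 612 log2 changes. Of the 28 called genes, 13 kept their call in all alternatives, GALNT14, GALNT7, GALNT13 and GALNT5 among them, 15 lost it in at least 1, and 0 changed direction. Direction changed for 6 genes that were not called, with fits without 1 library giving C18orf21 -0.10 to 0.04, GALNT1 -0.00 to 0.13, MFAP3 -0.09 to 0.04, POC1B -0.09 to 0.10, TGFBR1 -0.04 to 0.05 and TNFRSF10B -0.02 to 0.02. Of the 10 genes, 1 was called lower with upper-quartile scaling against 0, and 2 to 3 were called higher in all fits. Together with the other family genes, 9 list genes were called lower, 5 with DESeq2 and 4 to 10 without 1 library (4 without wild-type replicate 3). Over all tested genes, 1374 were called lower, 1002 with DESeq2 and 1042 to 1640 without 1 library. Neighbours called lower numbered 6, and 2 to 7 without 1 library (3 without wild-type replicate 2 and 2 without wild-type replicate 3). The cause was not tested. Same-numbered libraries did not deviate together (correlations of 0.08, 0.09 and -0.12), so the numbers were not taken as pairs. With the replicate block, 1959 genes were called higher and 1615 lower, against 1768 and 1374, and 3 of the 10 genes higher. The block ended the call of KMT2C (adjusted p = 0.105). At 24 wild-type counts over 3 libraries, counting error alone left the GALNT14 ratio between 6.60 and 16.0.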
